A study of Mus musculus with 6 samples.

Results

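The genes described here belong to the contractile actin cytoskeleton and its attachments: Acta2, Tpm1, Tpm2, Tagln, Cnn1, Myl9, Parva, Cav1 and Thbs1. All probes whose RefSeq accession carries 1 of these symbols were taken, which gave 20 probes for 9 genes, of 41059 probes and 18516 named genes on the array. The 9 genes were chosen by their signals on these same arrays, in wild-type, mock and Flag-Dppa2 cells and in each knockout line, with no recorded threshold. Their levels and differences are therefore given as a description, with no test, in all 3 group comparisons and between the knockout lines.

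The study measured RNA of mouse embryonic stem cell lines that lack Dppa2 (ECAT15-2), a DNA-binding protein of pluripotent cells, on 6 Agilent whole-genome arrays with a single colour (Cy3). The Flag-Dppa2 group and the mock group each held the same 2 knockout lines, each line derived from its own breeding pair, with genotype 15-2-/- and 15-1CT/CT, where 15-1 is Dppa4 (ECAT15-1) and CT is a conditional targeted allele. The Flag-Dppa2 lines carried the piggyBac vector piggyBac-CAG-Flag15-2-IP, in which the constitutive CAG promoter drives the tagged protein, and the mock lines carried the empty vector piggyBac-CAG-IP. The 2 wild-type lines (15-1+/+, 15-2+/+) came from the same pairs and were not transduced. All cells were on a mixed 129Sv and C57BL6 background per the labels and were grown for 3 days on gelatin with 15% FCS and LIF. Each knockout line is a single derivation, so a feature of a line and an effect of its genotype cannot be told apart within it. The Dppa4 allele and the transduction also separate every knockout array from wild type.

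Several properties of the arrays touch the results. The Dppa2 probe read 760.3 and 918.5 intensity units with Flag-Dppa2 and 188.9 and 185.6 with mock vector, against 3583 and 3602 in wild type, so the returned transcript stayed below the wild-type level. The wild-type pair was closer than scanner noise alone would make it: 0.442% of 14943 bright spots differed beyond a limit that 5% should pass, against 24.7% for the Flag-Dppa2 pair and 22.2% for the mock pair. They are therefore counted as 1 sample when levels are described, without an SD, and every count from the planned fit, which took them as 2 arrays, is given with that caution. The Y-linked genes Ddx3y and Eif2s3y had a signal well above background in wild type but on 0 of the 4 knockout arrays, so the presence of a Y chromosome and the knockout cannot be told apart. The Flag-Dppa2 arrays lay on a slide of their own, while the mock and wild-type arrays shared the other slide, so slide and Flag-Dppa2 cannot be told apart either. All 12 pluripotency markers measured were well above background on all 6 arrays. Signals are given as read by the scanner, whereas percentages and folds are taken after each array's log2 signals were set relative to its 75th percentile, which lay between 719 and 856 units.

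Contractile cells build force by sliding myosin II along actin filaments. Tropomyosin lies along those filaments, calponin-type proteins bind them, and the filaments end at integrin adhesions, where parvin joins them to the membrane. Many of these genes are known targets of serum response factor (SRF) with its actin-sensing cofactors of the myocardin family, which bind the CArG box, and some promoters also hold the MCAT motif of TEAD factors. In embryonic stem cells the smooth-muscle-type genes among them are usually associated with spreading and differentiating cells.

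RefSeq promoters (GRCm38.p6) were found for 6 of the 9 genes, namely Acta2, Myl9, Tpm1, Tpm2, Cnn1 and Cav1, which has 2. Tagln, Thbs1 and Parva had none in the table used. The 4 below were chosen because they belong to genes whose levels are described next and because they differ in the motifs they hold. They show the 250 bases before the annotated start on the gene's strand, with capitals for a CArG box, exact or with 1 mismatch in its A or T run, and for MCAT (GGAATG), both searched on both strands.

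Acta2 promoter, chr19:34255374-34255623, minus strand: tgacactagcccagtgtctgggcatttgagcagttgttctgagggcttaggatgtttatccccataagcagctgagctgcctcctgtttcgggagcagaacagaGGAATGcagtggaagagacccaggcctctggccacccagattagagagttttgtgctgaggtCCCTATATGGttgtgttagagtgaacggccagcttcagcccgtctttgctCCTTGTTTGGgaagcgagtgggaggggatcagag
Myl9 promoter, chr2:156775214-156775463, plus strand: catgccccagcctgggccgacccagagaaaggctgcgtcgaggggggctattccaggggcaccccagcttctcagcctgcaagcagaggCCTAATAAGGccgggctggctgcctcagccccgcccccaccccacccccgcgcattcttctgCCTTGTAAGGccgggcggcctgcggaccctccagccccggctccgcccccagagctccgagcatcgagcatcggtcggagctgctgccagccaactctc
Tpm1 promoter, chr9:67049214-67049463, minus strand: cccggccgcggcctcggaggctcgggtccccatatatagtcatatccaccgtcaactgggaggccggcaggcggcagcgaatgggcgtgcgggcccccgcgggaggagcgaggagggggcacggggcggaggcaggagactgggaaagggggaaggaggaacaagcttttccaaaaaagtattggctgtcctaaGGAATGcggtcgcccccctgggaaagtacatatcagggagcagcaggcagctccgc
Cnn1 promoter, chr9:22099003-22099252, plus strand: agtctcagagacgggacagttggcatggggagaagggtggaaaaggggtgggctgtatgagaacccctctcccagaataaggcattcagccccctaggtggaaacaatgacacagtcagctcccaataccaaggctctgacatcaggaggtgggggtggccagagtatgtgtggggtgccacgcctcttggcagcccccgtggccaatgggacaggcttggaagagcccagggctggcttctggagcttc

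The Myl9 window held an exact CArG box that begins 161 bases before the start, and a second match with 1 mismatch at 99 bases. The Acta2 window held matches with 1 mismatch at 84 and 34 bases and MCAT at 146 bases before the start, and the Tpm1 window held MCAT at 56 bases. Of the 7 windows, 1 held an exact CArG box and 2 held it with at most 1 mismatch. The shares over 32851 RefSeq promoter windows of the same length were 1.63% and 9.98%. For these counts and shares each window also took in a short stretch after the start, which held none of the matches in the 7. MCAT was in 2 of the 7 and in 14.7% of all windows. The TATA box (TATAAA) was in 1 of the 7, on the reverse strand of a Cav1 promoter, and in 13.6% of all windows. A match is a run of letters only, and the Cnn1 window showed none of the 3 motifs.

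**Figure D1:**
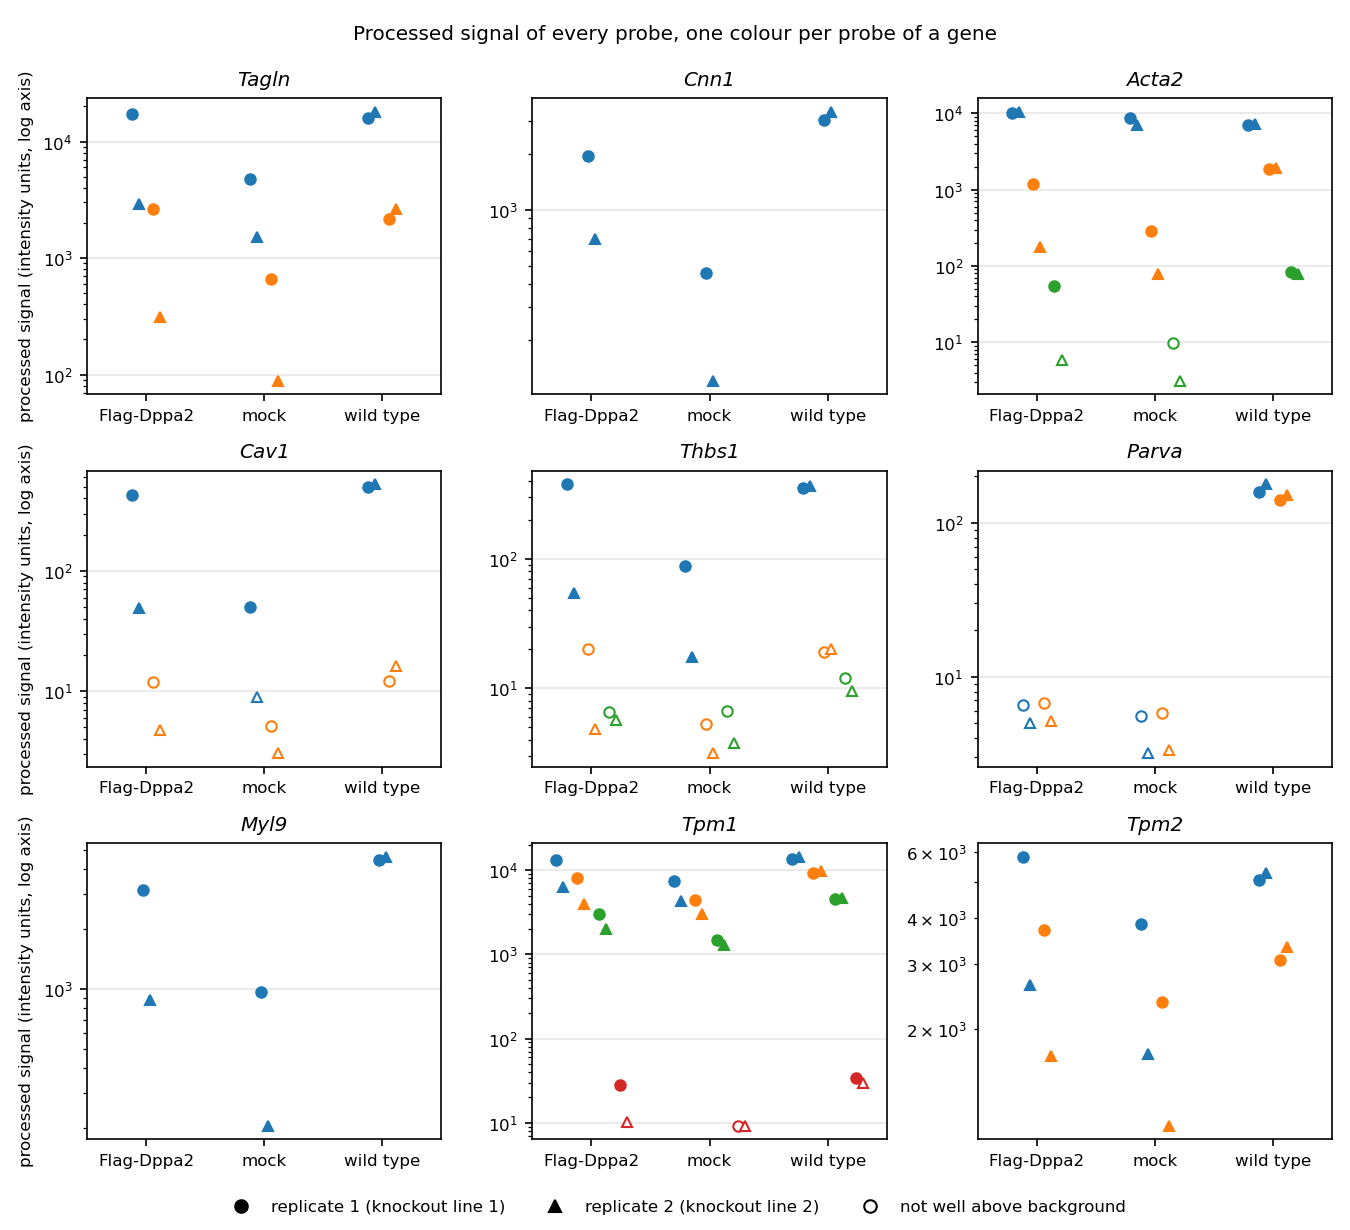
Processed signal in intensity units on a log axis for each of the 20 probes, with Flag-Dppa2, mock and wild-type arrays from left to right in each panel. Circles are replicate 1 and triangles replicate 2 (knockout lines 1 and 2 in the knockout groups), colours separate probes of a gene, and open symbols were not well above background. Most probes read lowest in mock line 2, whereas the brightest Acta2 probe stayed between 6923 and 10460 units on all 6 arrays.

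Acta2 encodes smooth muscle alpha-actin, the actin of contractile filaments, and its 3 probes disagreed. Probe A_52_P420504, printed in 10 spots per array, read 1176 and 177.4 units in Flag-Dppa2 lines 1 and 2 and 286.6 and 77.65 in mock lines 1 and 2, against 1855 and 1911 in wild type. The Flag-Dppa2 and mock ranges overlapped, and both lay below wild type. Relative to wild type the mock lines were 11.7-fold lower (log2 difference -3.55, SE 1.05 from the 6-array fit), and the Flag-Dppa2 lines were 3.71-fold lower. The dimmer probe A_52_P210078 read 54.35 and 5.895 with Flag-Dppa2 and 9.886 and 3.132 with mock, against 82.75 and 78.75 in wild type. It was well above background only in Flag-Dppa2 line 1 and in wild type, so its mock level was at least 3.94-fold lower than wild type. That bound, and those below, set the brighter group's mean against the lowest signal that was well above background on each array of the dimmer group, or against the probe's own signal where that was higher.

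The brightest Acta2 probe, A_51_P450957, went the other way. It read 10020 and 10460 units with Flag-Dppa2 and 8716 and 6923 with mock, against 7009 and 7183 in wild type. After scaling, its Flag-Dppa2 level was 1.60-fold above wild type and its mock level 1.18-fold above wild type, without overlap of the groups. The 3 probes carry the same accession. A fit that keeps only the brightest probe of a gene reports Acta2 by this probe, with a mock minus wild-type difference of 0.24, whereas the mean of its probes gave -2.35 (log2). Which of them follows the Acta2 transcript was not tested. The other actin with a smooth muscle role, Actg2, read 2354 and 2520 with Flag-Dppa2 and 2302 and 1667 with mock, against 1632 and 1679 in wild type.

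Tpm1 and Tpm2 encode tropomyosins, the coiled-coil proteins that lie in the groove of the actin filament and govern access of myosin. For Tpm1, probe A_52_P44949 read 13350 and 6376 units with Flag-Dppa2 and 7523 and 4333 with mock, against 13770 and 14430 in wild type. Probe A_52_P532910 read 8024 and 3975 with Flag-Dppa2 and 4427 and 3015 with mock, against 9285 and 9906 in wild type. Probe A_51_P325173, which carries the accession of another Tpm1 transcript, read 3061 and 2012 with Flag-Dppa2 and 1483 and 1286 with mock, against 4557 and 4688 in wild type. The 3 probes gave mock minus wild-type differences of -1.19, -1.28 and -1.63 on the log2 scale, and all their mock arrays lay below both wild-type arrays. With A_51_P325173 the 3 groups did not overlap at all, and the Flag-Dppa2 level was 1.85-fold above mock (log2 0.89, SE 0.18). With A_52_P44949, Flag-Dppa2 line 2 lay below mock line 1, so those groups overlapped, and with A_52_P532910 these arrays were level after scaling, at 48.3% of wild type in Flag-Dppa2 line 2 and 48.0% in mock line 1. The remaining Tpm1 probe, A_51_P378371, was well above background only in Flag-Dppa2 line 1 and on 1 wild-type array, at 28.1 and 33.66 units.

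Tpm2 showed the smallest loss among the genes with a signal well above background on all arrays, apart from the bright Acta2 probe. Probe A_52_P418477 read 5835 and 2629 units with Flag-Dppa2 and 3837 and 1716 with mock, against 5046 and 5293 in wild type. Probe A_52_P315976 read 3700 and 1689 with Flag-Dppa2 and 2366 and 1094 with mock, against 3076 and 3326 in wild type. Mock levels were 1.86-fold and 1.84-fold below wild type, and the Flag-Dppa2 arrays lay on either side of wild type, line 1 above and line 2 below. The split between the knockout lines was about as large as the difference between mock and wild type: line 1 exceeded line 2 by 2.07-fold with mock and 2.03-fold with Flag-Dppa2 by the first probe.

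Tagln (transgelin, SM22) and Cnn1 (calponin 1) bind actin filaments and are classical early smooth muscle proteins. Tagln probe A_51_P450527 read 17250 and 2908 units with Flag-Dppa2 and 4778 and 1515 with mock, against 15990 and 18010 in wild type. Its second probe, A_52_P517683, read 2645 and 310.7 with Flag-Dppa2 and 661.8 and 88.27 with mock, against 2146 and 2613 in wild type. In both, Flag-Dppa2 line 1 reached 108% and 119% of the wild-type mean, while Flag-Dppa2 line 2 reached 19.9% and 15.3%, below mock line 1. The mock levels were 5.83-fold and 9.06-fold below wild type, with SEs of 0.97 and 1.36 on the log2 scale.

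Cnn1 read 1946 and 694.4 units with Flag-Dppa2 and 455.3 and 120.5 with mock, against 3036 and 3375 in wild type. The 3 groups did not overlap, with wild type highest and mock lowest. Mock was 12.6-fold below wild type (log2 -3.66, SE 0.76), and Flag-Dppa2 was 5.10-fold above mock (log2 2.35) and 2.48-fold below wild type. Flag-Dppa2 was 4.37-fold above mock in line 1 and 5.96-fold in line 2, so for Cnn1 the step was of like size in both lines.

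Myl9 encodes a regulatory light chain of myosin II, whose phosphorylation turns on contraction. It read 3146 and 874.0 units with Flag-Dppa2 and 963.5 and 204.0 with mock, against 4455 and 4626 in wild type. Both vectors' arrays lay below wild type, and after scaling Flag-Dppa2 line 2 was level with mock line 1, at 22.4% of wild type with Flag-Dppa2 and 22.1% with mock. Mock was 9.47-fold below wild type (log2 -3.24, SE 0.92), and Flag-Dppa2 was above mock by 3.34-fold in line 1 and 4.43-fold in line 2.

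Parva encodes alpha-parvin, an adaptor that joins integrin-linked kinase to actin at focal adhesions, and it stood apart from the other 8 genes. Probe A_52_P177960 read 6.577 and 4.969 units with Flag-Dppa2 and 5.563 and 3.173 with mock, against 157.1 and 177.5 in wild type. Probe A_52_P225570 read 6.752 and 5.152 with Flag-Dppa2 and 5.813 and 3.335 with mock, against 141.0 and 152.1 in wild type. Neither probe was well above background on any of the 4 knockout arrays, so no level can be ordered among them. The mock lines were at least 8.16-fold and 7.15-fold lower than wild type, and the Flag-Dppa2 lines were at least 6.85-fold lower by the first probe. For the other 8 genes, at least 1 probe was well above background in Flag-Dppa2 line 1 at 64.6% or more of the wild-type mean.

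Cav1 encodes caveolin-1, the coat protein of caveolae, the membrane pits that buffer tension. Probe A_52_P306845 read 426.4 and 48.66 units with Flag-Dppa2 and 49.97 and 8.912 with mock, against 495.9 and 524.8 in wild type. Mock line 2 was not well above background, and Flag-Dppa2 line 2 and mock line 1 read nearly alike. With the lowest signal well above background on the array of mock line 2 in place of its own, mock was at least 17.4-fold below wild type and Flag-Dppa2 at least 5.47-fold above mock. In line 1 Cav1 reached 88.8% of wild type with Flag-Dppa2, against 10.2% with mock, and in line 2 it reached 11.1% with Flag-Dppa2, against at most 3.23% with mock. A second Cav1 probe, A_51_P107302, was not well above background on any array.

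Thbs1 encodes thrombospondin 1, a secreted matrix glycoprotein known to activate latent TGF-beta. Probe A_52_P363951 read 377.2 and 54.85 units with Flag-Dppa2 and 87.96 and 17.54 with mock, against 351.6 and 364.8 in wild type. Flag-Dppa2 line 1 lay just above wild type, and Flag-Dppa2 line 2 lay below mock line 1. Mock was 8.43-fold below wild type (log2 -3.08, SE 1.16), and the other 2 Thbs1 probes, A_52_P337086 and A_52_P337092, were not well above background on any array.

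The folds of the dimmer probes depended on the background correction. The bounds given above apply without the normexp correction, which adds an offset before the log. With it, the mock deficit was 5.35-fold for Cav1, 3.47-fold for Thbs1, and 3.24-fold and 3.06-fold for the Parva probes. For Acta2 it was 7.50-fold by probe A_52_P420504 and 1.86-fold by the dimmer probe A_52_P210078. All of these mock levels stayed below wild type. Flag-Dppa2 over mock was 2.52-fold for Cav1 and 2.12-fold for Thbs1 with normexp.

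**Figure D2:**
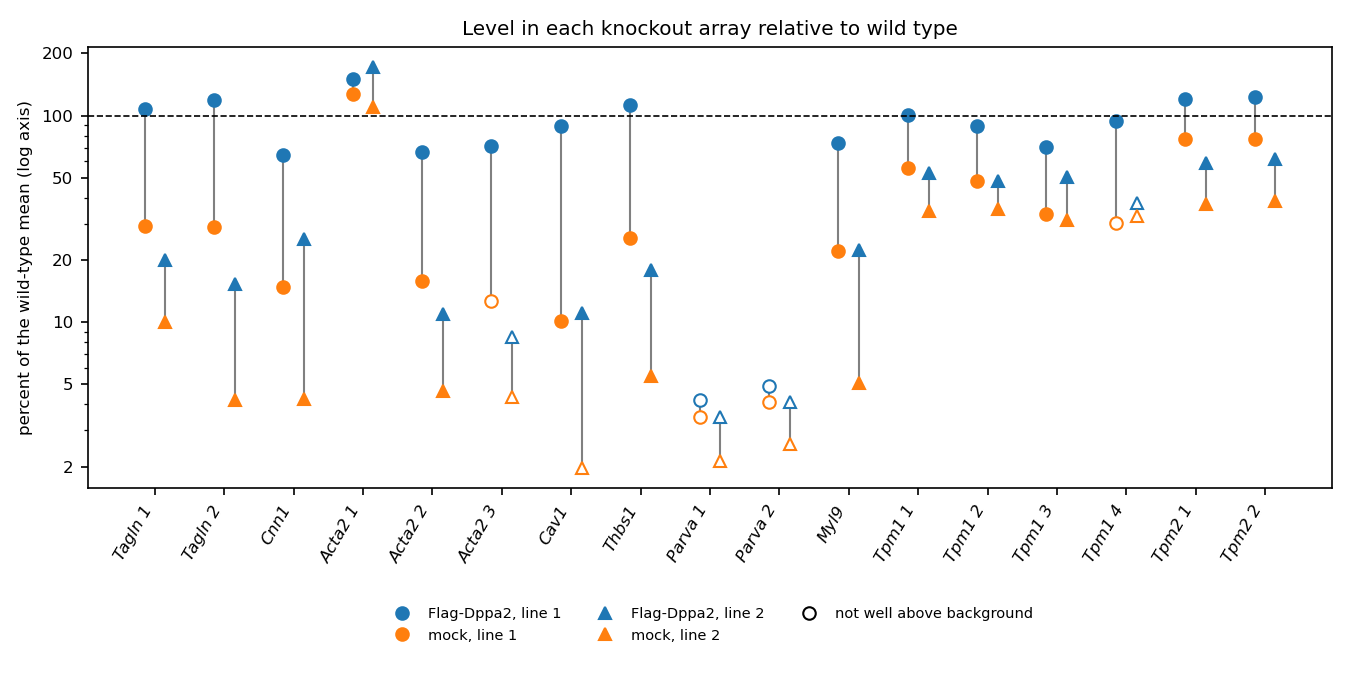
Level of the 17 probes that passed the filter in each knockout array, as a percentage of the wild-type mean on a log axis (dashed line, 100%). Blue marks Flag-Dppa2 and orange mock, circles line 1 and triangles line 2, lines join both vectors within a line, and open symbols were not well above background. Flag-Dppa2 lay above mock for all 15 probes that could be ordered in line 1 and all 13 in line 2, and pairs of open symbols have no order. Where only the mock symbol is open, the probe entered through its Flag-Dppa2 array alone, so its order was set by that rule.

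Of the 20 probes, 17 were well above background on at least 2 arrays and 12 on all 6. Groups were compared for overlap only where a probe was well above background on all arrays of at least 1 of the 2 groups. Between mock and wild type, 15 of 16 such probes lay lower without overlap and 1, the bright Acta2 probe, higher, where 29.2% of 23607 such probes lay lower and 37.6% higher. The comparison of Flag-Dppa2 and mock shares its mock arrays with the one before. In it, 6 of 13 lay higher without overlap and 0 lower, beside 17.6% and 20% of such probes. The 6 include Myl9 and Tpm1 probe A_52_P532910, where Flag-Dppa2 line 2 and mock line 1 were level after scaling. They also include Cav1, where these arrays read nearly alike, and the bright Acta2 probe. Between Flag-Dppa2 and wild type, 9 of 16 lay lower and 1 higher without overlap, beside 28.4% and 33.2% of such probes. The Parva probes in both comparisons with wild type, and the dim Acta2 probe in that of mock, entered through wild type alone. They could only come out lower there. These counts are read no further, since the genes were chosen with these contrasts known.

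Within a knockout line, probes can be ordered where at least 1 of its 2 arrays was well above background. Of these, all 15 read higher with Flag-Dppa2 than with mock in line 1 and all 13 in line 2, as did 47.5% and 49.8% of such probes on the whole array. Acta2 probe A_52_P210078 and Tpm1 probe A_51_P378371 in line 1, and Cav1 in line 2, entered through the Flag-Dppa2 array alone. Their order was set by that rule. Several probes share a gene and the genes were chosen on these arrays, so these counts too are read no further. Levels relative to wild type are summarised over the 11 probes that were well above background on all 6 arrays, without the bright Acta2 probe, so that Parva, Cav1 and the dim Acta2 and Tpm1 probes, whose low levels have no exact value, are left out. In line 1 the 11 probes stood at 64.6% to 123% of wild type with Flag-Dppa2 (median 101%), against 14.8% to 77.1% with mock (median 29.3%). In line 2 they stood at 10.97% to 61.5% with Flag-Dppa2 (median 25.3%), against 4.20% to 38.5% with mock (median 10.1%). The bright Acta2 probe left out here went the other way. It stood at 149.9% and 171.6% of wild type in Flag-Dppa2 lines 1 and 2, and at 127.6% and 109.8% in mock lines 1 and 2. Several of the 11 probes share a gene, so the medians are over probes and not over genes. Over the same 11 probes, line 1 exceeded line 2 by a median of 2.56-fold with Flag-Dppa2 and 2.91-fold with mock, and Flag-Dppa2 exceeded mock by a median of 3.34-fold in line 1 and 1.99-fold in line 2.

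**Figure D3:**
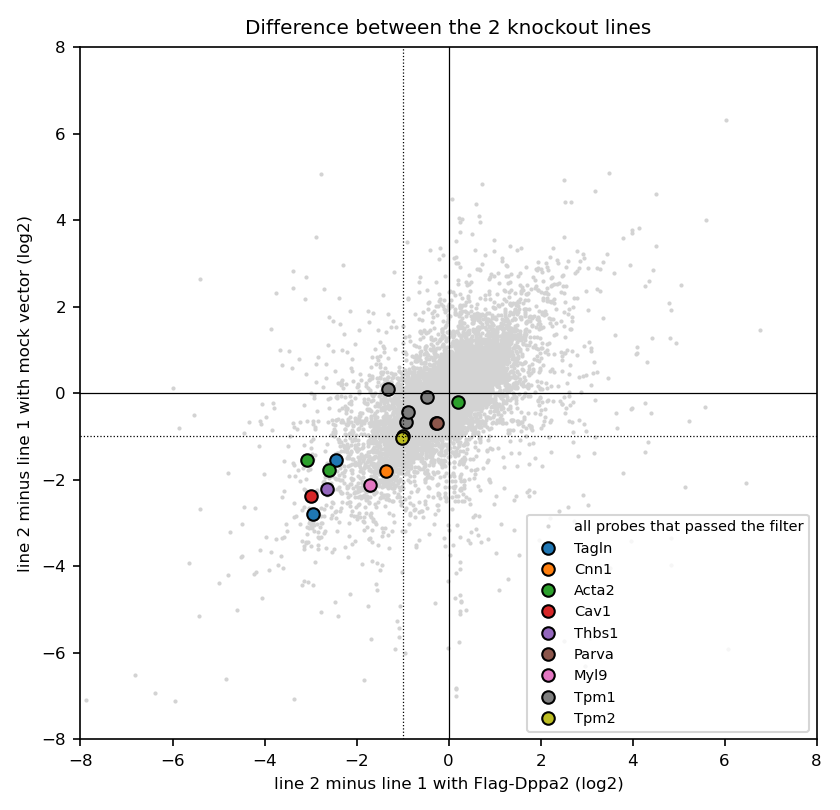
Difference between the knockout lines, line 2 minus line 1 in log2, with Flag-Dppa2 on the horizontal axis and with mock on the vertical axis, for all 24829 probes that passed the filter (grey) and for the 17 probes of the 9 genes (coloured). Dotted lines mark a 2-fold deficit of line 2, and 8 of the 13 coloured probes with a signal well above background under each vector lie beyond both.

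Among probes well above background in at least 1 of the lines, 14 of 15 were lower in line 2 than in line 1 with Flag-Dppa2 (48.3% of all such probes) and 13 of 13 with mock (47.1%). The dim Acta2 and Tpm1 probes with Flag-Dppa2, and Cav1 with mock, entered through line 1 alone, so lower was their only outcome. The genes were chosen with the lines seen, so counts between the lines are read no further. At least 2-fold lower in line 2 under both vectors were 8 of 13, beside 3.51% of all such probes. With the normexp correction 5 of 13 were, beside 1.07%, and Cav1, Thbs1 and Tpm2 probe A_52_P418477 no longer counted. Mock and Flag-Dppa2 arrays of a line are the same cells apart from the vector, so the pair of values for a line is no independent repeat, and with 1 array per line and vector no test was made. The lines also differed in some other markers. Zfp42, a marker of naive pluripotency picked here after its values were seen, read 9277 units in line 1 and 58740 in line 2 with Flag-Dppa2. With mock it read 9597 and 62320, against 9713 and 10570 in wild type. Over the 12 pluripotency markers tested, however, the median line difference was 0.05 (log2) under each vector. Of these 12, 1 was at least 2-fold higher in line 2 under both vectors and 0 were lower. The summed level of the trophectoderm and epithelial markers, which follows the brightest of them, was 144 times the 75th percentile in Flag-Dppa2 line 1 and 44.2 in line 2, and 47.8 and 27.4 with mock, against 83.8 and 84.7 in wild type. Array signal cannot separate fewer cells of a type from less RNA per cell, and the part of such cells in the contractile genes was not tested.

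Called genes of the wider pathway were counted beside those among all features. Across 11 lists of actin, myosin, adhesion and signalling genes, 168 genes other than the 9 were listed, 165 were on the array and 153 passed the filter. By limma with all 6 arrays, 3 of the 153 were called higher and 5 lower in mock than in wild type at an adjusted p under 0.05, where 2.47% and 3.65% of 18764 features were called. With Flag-Dppa2 against mock, 1 of the 153 was called higher and 0 lower, where 0.703% and 0.0373% of features were called. Against wild type 0 of the 153 were called with Flag-Dppa2, where 0.533% of features were called. The median log2 difference of the 153 genes was -0.10 for mock minus wild type and 0.14 for Flag-Dppa2 minus mock, beside 0.05 and -0.01 over all features. With the wild-type arrays counted as 1 sample, limma called 0 genes in each comparison, while 2280, 1470 and 1564 features had an unadjusted p under 0.05 for mock against wild type, Flag-Dppa2 against mock and Flag-Dppa2 against wild type.

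**Figure D4:**
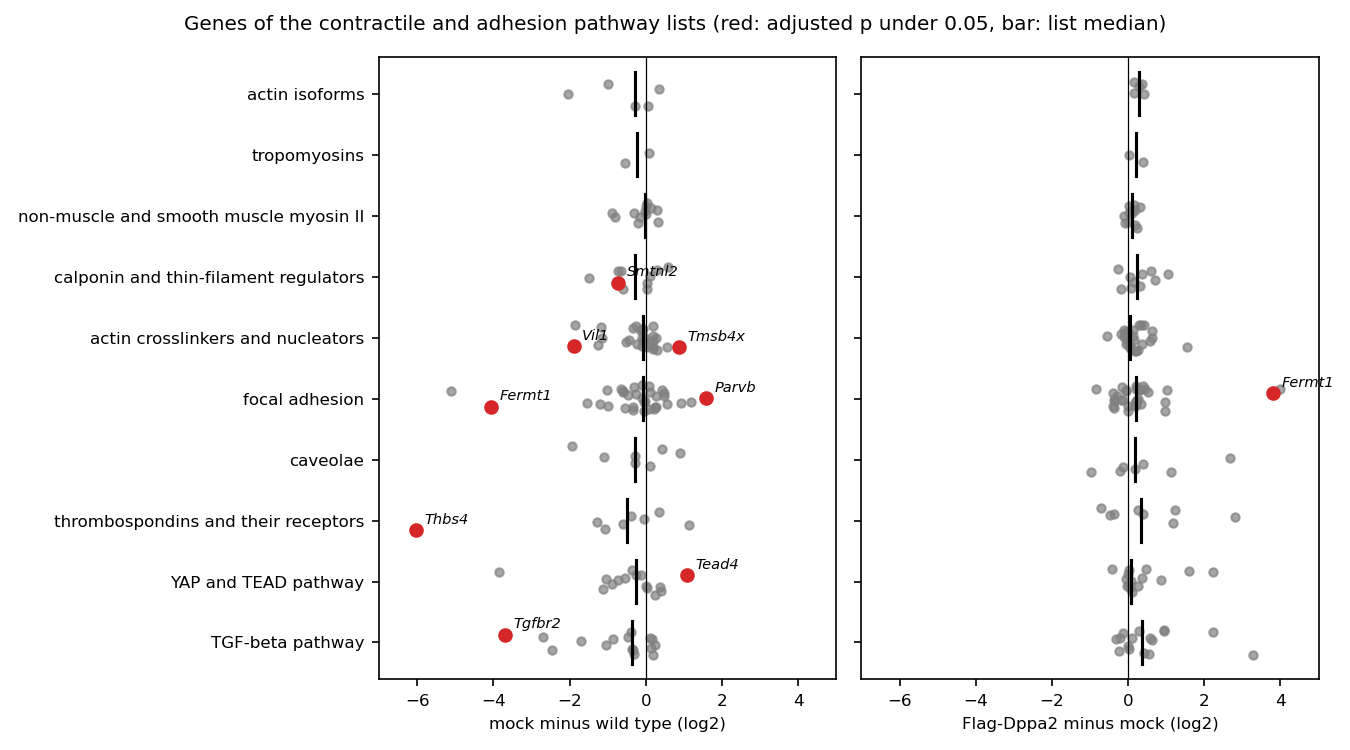
Log2 differences of 139 tested pathway genes in 10 of the 11 lists, mock minus wild type on the left and Flag-Dppa2 minus mock on the right. Each point is a gene, red points passed an adjusted p under 0.05 in the 6-array limma fit, and bars are list medians. The medians ran from -0.49 to -0.007 for mock minus wild type, beside 0.05 over all features. For Flag-Dppa2 minus mock they ran from 0.05 to 0.36, beside -0.01 over all features.

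Among focal adhesion genes, 1 of 34 was called higher and 1 lower in mock lines. Parvb, the beta-parvin paralogue of Parva, read 372.3 and 415.3 units with Flag-Dppa2 and 662.2 and 791.0 with mock, against 240.4 and 280.0 in wild type, and was 3.02-fold higher in mock than in wild type (adjusted p = 0.0272). It thus lay opposite to Parva in every knockout array. Fermt1 (kindlin-1), an activator of integrins, read 82.00 and 79.79 with Flag-Dppa2 and 6.173 and 5.781 with mock, against 101.4 and 115.0 in wild type. It was at least 5.27-fold lower in mock than in wild type (adjusted p = 0.00265) and at least 4.39-fold higher with Flag-Dppa2 than with mock (adjusted p = 0.00446).

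Fermt1 was alone among the 153 pathway genes called both between mock and wild type and between Flag-Dppa2 and mock, and its line difference with Flag-Dppa2 was 0.09 (log2). Fhl2, a LIM-domain partner of SRF and of integrins named here after its values were seen, read 979.5 and 110.0 units with Flag-Dppa2 and 60.99 and 7.317 with mock, against 760.8 and 826.4 in wild type. Mock line 2 was not well above background, and the difference between mock and wild type was not called (adjusted p = 0.111).

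In the list of actin crosslinkers and nucleators, 1 of 30 genes was called higher and 1 lower. Tmsb4x, the actin monomer-binding thymosin beta 4, was 1.85-fold higher in mock than in wild type (adjusted p = 0.0345), and Vil1, the bundling protein villin, was 3.72-fold lower (adjusted p = 0.0406), with 1 of the 2 mock arrays well above background. Of 10 calponin and thin-filament genes, Smtnl2, a smoothelin-like protein, was called 1.65-fold lower in mock (adjusted p = 0.0459), and with the replicate number as a block its adjusted p was 0.0645. Of 8 thrombospondin genes and receptors, Thbs4 was called at least 13.8-fold lower in mock (adjusted p = 0.0179). It read 16.74 and 43.59 units with Flag-Dppa2 and 5.150 and 3.052 with mock, against 274.2 and 289.6 in wild type, and only Flag-Dppa2 line 2 among the knockout arrays was well above background.

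Of 15 genes of the YAP and TEAD pathway, Tead4, a DNA-binding partner of YAP, was called 2.10-fold higher in mock (adjusted p = 0.0436). Of 16 TGF-beta pathway genes, the type II receptor gene Tgfbr2 was called at least 8.23-fold lower in mock (adjusted p = 0.0361, and 0.0642 with the block). It read 93.81 and 31.24 units with Flag-Dppa2 and 12.20 and 11.71 with mock, against 145.5 and 195.0 in wild type. The Flag-Dppa2 level lay between mock and wild type in both lines.

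Another 4 lists held no called gene in any comparison. Among 5 actin isoforms, skeletal Acta1 showed the widest split between lines by the mean over both vectors, at 173.0 and 24.53 units with Flag-Dppa2 and 95.38 and 26.33 with mock, against 217.6 and 229.6 in wild type, and cardiac Actc1 was next by that mean, with line differences of -0.51 with Flag-Dppa2 and -0.25 with mock (log2). The cytoplasmic actins Actb and Actg1, the bulk of cellular actin, had mock minus wild-type differences of 0.07 and -0.28. The 2 other tropomyosins, Tpm3 and Tpm4, had differences of 0.10 and -0.55, and neither was called. Of 12 myosin II genes, Ppp1r12b and Ppp1cb, subunits of the myosin phosphatase, had the widest line differences by the mean over both vectors, 0.73 and 0.67 with Flag-Dppa2 and 0.51 and 0.34 with mock.

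Of 7 caveolar genes, Cav2, the partner of Cav1, read 58.40 and 27.92 units with Flag-Dppa2 and 8.745 and 4.849 with mock, against 24.28 and 29.46 in wild type, and was well above background with Flag-Dppa2 only. Ehd2, an ATPase at the neck of caveolae, had line differences of -0.31 with Flag-Dppa2 and -0.82 with mock. Srf, which encodes the factor that binds the CArG box, had a mock minus wild-type difference of -0.30 and the cofactor Mrtfa 0.22 (log2), neither called, and Myocd did not pass the filter. At least 2-fold lower in line 2 than in line 1 under both vectors were 15 of the 153 pathway genes and 1 was higher, where 4.06% of all features were lower and 2.02% higher.

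Markers of cell types that carry contractile genes were measured beside them. Of the 10 smooth muscle markers, the defining myosin Myh11 and Synpo2 were not well above background on any array, and the summed level of the list lay between 4.45 and 4.75 times the 75th percentile with Flag-Dppa2 and between 3.66 and 4.37 with mock, against 3.35 to 3.56 in wild type. Des (desmin) was called 2.11-fold higher in mock than in wild type (adjusted p = 0.0293). The sum follows the brightest markers, and over the 6 that passed the filter the median log2 difference was 0.14 for mock minus wild type (2 of 6 below 0) and -0.42 for Flag-Dppa2 minus wild type (3 of 6 below 0).

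The fibroblast and feeder list was mostly lower in mock than in wild type, with a median log2 difference of -1.79 over the 15 genes that passed the filter (13 of 15 below 0). The median was -0.93 in line 1 and -2.74 in line 2, and 6 of 15 were at least 2-fold lower in line 2 under both vectors, where 4.06% of all features were. Of its 19 genes, 14 and 11 were well above background in Flag-Dppa2 lines 1 and 2 and 12 and 9 in mock lines, against 14 and 15 in wild type, and Col6a1, Col6a2, Lum and Prrx1 were below background on every array. The summed level, which follows the brightest genes, was 9.74 and 8.74 with Flag-Dppa2 and 9.51 and 9.65 with mock, against 13.4 and 13.9 in wild type. The list had 3 of 15 tested genes called lower in mock by limma, beside 3.65% of all features. Mmp2, a matrix protease, was lower by 19.4-fold (adjusted p = 0.00646) and Loxl1, a lysyl oxidase, by at least 8.59-fold (adjusted p = 0.00565). Fbn1, fibrillin 1, was lower by at least 3.53-fold (adjusted p = 0.00899). All 3 were called higher with Flag-Dppa2 than with mock, as were 0.703% of all features. Col1a1 read 266.9 and 49.09 units with Flag-Dppa2 and 249.5 and 63.82 with mock, against 1407 and 1445 in wild type, and was not called. The part of such cells in the levels of the 9 genes was not tested.

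Of 11 tested cardiac and skeletal muscle markers, 3 were called lower in mock than in wild type by limma, beside 3.65% of all features. Myh6 was lower by 4.75-fold (adjusted p = 0.0336, 1 of 2 mock arrays well above background). Myl4 was lower by 4.18-fold (adjusted p = 0.0345) and Nkx2-5 by at least 5.68-fold (adjusted p = 0.0438). The skeletal muscle regulators Myod1, Myog and Myf5 were below background on all arrays, and the summed level of the list was 4.72 and 5.05 with Flag-Dppa2 and 3.38 and 3.95 with mock, against 5.84 and 5.92 in wild type. Of 9 streak and mesoderm markers, Mesp2 was called at least 3.37-fold lower in mock (adjusted p = 0.0237), and the summed level was 2.39 and 1.29 with Flag-Dppa2 and 1.79 and 0.915 with mock, against 2.15 and 2.15 in wild type. Of 12 pluripotency markers, Utf1 was called 1.83-fold higher in mock (adjusted p = 0.0384). None of 13 endoderm and 8 trophectoderm markers was called. The summed endoderm level was 18.5 and 14.3 with Flag-Dppa2 and 14.1 and 14.4 with mock, against 18.3 and 18.1 in wild type. At least 2-fold lower in line 2 under both vectors were 4 of the 9 streak and mesoderm, 3 of the 13 endoderm and 2 of the 8 trophectoderm markers, beside 4.06% of all features. None of the markers in these lists was at least 2-fold higher. The median line difference of the trophectoderm list was -0.79 with Flag-Dppa2 and -0.06 with mock. The widest by the mean over both vectors were Pdgfra and Gata6 (endoderm) and Cdx2 and Krt8 (trophectoderm). Pdgfra read 100.6 and 12.18 units with Flag-Dppa2 and 50.83 and 5.707 with mock, against 11.93 and 8.906 in wild type, and was well above background only in line 1.

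The genes most like the 9 in profile were sought among 2801 genes that were well above background on all arrays and ranged at least 2-fold, by Pearson's r over 6 arrays with the mean centred log2 level of the 9 genes, each taken by its brightest probe. The mean profile was 0.79 and -0.68 with Flag-Dppa2 and -0.66 and -2.07 with mock, against 1.29 and 1.32 in wild type. The 10 highest were Nmi (r = 0.9997), 6330403K07Rik, Stmn4, Patj, H2-Ab1, Ttc9, Shd, Spats2l, Ier5 and Setd7 (r = 0.9905). Nmi, an interferon-inducible protein, read 1425 and 548.7 units with Flag-Dppa2 and 641.0 and 252.2 with mock, against 2052 and 2252 in wild type. Stmn4, of the tubulin-binding stathmin family, read 1756 and 717.1 with Flag-Dppa2 and 620.6 and 231.7 with mock, against 2834 and 2950 in wild type. The arrays share lines and the wild-type pair is nearly a repeat, so such values are a description of few points. Over the 17 probes themselves, r with the same mean was 0.82 for both Parva probes, above 0.9 for the other 14, and -0.27 for the bright Acta2 probe. The genes of these probes make up that mean and were chosen on these arrays, so high values of r are built in.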

How the data were processed

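Total RNA of 6 cell samples was measured on 6 single-colour arrays in 3 groups of 2. The intensity values deposited by the authors are background-subtracted processed signals, unscaled across arrays, from Agilent Feature Extraction 10.7.3.1 (protocol GE1_107_Sep09), per the file headers. The authors also deposited log2 values in a series matrix, made with GeneSpring GX 11 per the labels, with a median of 5.84 in every column. These followed the scanner's log2 signals (r at least 0.9997 per array), on the same scale and without centring of genes, and served as an alternative. The labels name separate lines but not separate cultures, so p-values measure the spread between these arrays. That spread may be technical in the wild-type pair, and in the knockout pairs it also includes the difference between the 2 lines.

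Each array held 45018 spots. Control spots (1639) and flagged spots were left out, spots of a probe were averaged on the log2 scale, and 115 of 41174 probes lacking a usable spot were dropped. Of the other 41059, between 55.9% and 60.4% were well above background per array and no spot was saturated. The files used hold no gene name column, so probes were named through RefSeq accessions and a reference table (GRCm38.p6), which named 27143 and left 13916 unnamed. That table's build was used for names and promoters, while the headers name mm9.

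Log2 signals were set relative to each array's 75th percentile. The filter required a signal well above background on 2 or more arrays, and the brightest probe stood for a symbol, giving 18764 features (13298 genes and 5466 unnamed probes). One limma fit of all 3 groups (lmFit and eBayes of limma 3.58.1 in R 4.3.3, with 1.41 prior and 3 residual degrees of freedom) gave two-sided Benjamini-Hochberg adjusted p-values, called under 0.05. The fit was also run on simulated data with independent noise of equal spread for every feature. The real arrays share lines and the wild-type pair is nearly a repeat, so that run cannot vouch for the calls. Values for the probes of the 9 genes came from the same fit over all 24829 probes. Counts of ordered or non-overlapping probes were limited to probes above background as stated beside them, a rule chosen after the values were seen. Tables and plots used Python 3.11.15, numpy 2.4.6, pandas 2.3.3 and matplotlib 3.10.9.

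The 9 genes, the 11 pathway lists and the 7 marker lists were chosen with earlier results of these data known. The result of 1 pathway list is not reported here, though its genes enter the pathway totals. The text names all 9 genes with every probe, the called genes of each list (at most 4), 2 genes with the widest line difference where a list had none, and the 10 most alike genes. Genes named outside that rule are marked as chosen after their values were seen, or serve as members of a family just described (Actb, Actg1, Actg2, Srf, Mrtfa, Myocd, Col1a1), also after their values were seen.

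Replicate numbers mark the breeding pair, and mock and Flag-Dppa2 arrays of a number are the same line. Deviations from group means correlated at 0.59 between mock and Flag-Dppa2, -0.04 between mock and wild type and 0.01 between Flag-Dppa2 and wild type. The planned normexp alternative was run on the median spot signal, since the mean spot signal is not used here.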

Additional observations from a re-analysis of the deposited data

Results flagged for a closer look

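The Flag-Dppa2 level lay on opposite sides of wild type in the 2 knockout lines for 6 probes of 4 genes. The difference between the lines was not tested, since each line had 1 Flag-Dppa2 array. For Tagln, Flag-Dppa2 minus wild type was 0.11 in line 1 and -2.33 in line 2 (log2, probe A_51_P450527), and 0.25 and -2.71 by probe A_52_P517683. For Thbs1 it was 0.16 in line 1 and -2.49 in line 2. For Tpm1 probe A_52_P44949 it was 0.01 and -0.93, a value in line 1 that is at the wild-type level. For Tpm2 it was 0.26 and -0.76 by probe A_52_P418477, and 0.30 and -0.70 by probe A_52_P315976.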

How the results depend on the processing

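Among the 9 genes, 9 differences changed sign under an alternative. Acta2 turned with the mean of its probes in place of the brightest, to -2.35 for mock minus wild type and -1.08 for Flag-Dppa2 minus wild type (log2). Without Flag-Dppa2 line 2, Flag-Dppa2 minus wild type turned positive for the 6 probes listed above of Tagln, Thbs1, Tpm1 and Tpm2, at 0.01 to 0.30. With normexp, the dim Tpm1 probe A_51_P378371 turned to 0.07 for Flag-Dppa2 minus wild type. The counts of calls depended on few arrays. Against the 1149 features called for mock and wild type, 384 were called with no filter on dim probes, 494 with the replicate block, 1761 with an intensity trend and 0 with the wild-type arrays averaged. For Flag-Dppa2 and mock (139), the counts were 53 with normexp, 28 with probes above background on all 6 arrays, 48 with no filter, 4 with the replicate block, 0 with wild type averaged and 0 with the 4 knockout arrays only. For Flag-Dppa2 and wild type (100, 27 higher and 73 lower), they were 374 with normexp, 222 after quantile normalization (91 higher and 131 lower), 223 with the series matrix (92 higher and 131 lower), 23 on all 6 arrays, 6 with no filter, 0 with the replicate block, 0 with wild type averaged and 301 with the trend. The 8 pathway genes called for mock and wild type became 14 with normexp, 2 with no filter, 0 with wild type averaged, 13 on the first slide only and 15 with the trend. The 1 called for Flag-Dppa2 and mock became 0 with normexp, 0 on all 6 arrays, 2 with the mean of probes, 0 with wild type averaged and 0 with the 4 knockout arrays only. The 0 called for Flag-Dppa2 and wild type became 2 with normexp, 1 after quantile normalization, 1 with the series matrix, 1 with the mean of probes and 2 with the trend. Features at least 2-fold apart between the lines under both vectors numbered 1141, and 375 with normexp.

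Leaving out 1 array gave 0 to 888 calls for mock and wild type (0 without either wild-type array, 363 without mock line 1 and 386 without mock line 2), 0 to 112 for Flag-Dppa2 and mock (0 without either wild-type or either Flag-Dppa2 array, 37 without mock line 1), and 0 to 5 for Flag-Dppa2 and wild type. For pathway genes the ranges were 0 to 13, 0 to 2 and 0 to 0. A group left with 1 array is assumed to vary like the others. Smtnl2 and Tgfbr2 lost their call under the replicate block. The slide could not be fitted as a block, because the Flag-Dppa2 arrays are alone on theirs. The cause of these changes was not tested. Signals near background limit Parva, Cav1, Thbs1 and the dim Acta2 and Tpm1 probes.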
